A study of Mus musculus with 12 samples.

Results

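The 34 genes described here encode chemokines (16 ligands) and chemokine receptors (18 receptors). They were taken by symbol from a fixed list of chemokines other than Pf4 and of chemokine receptors. Each library had counts for 39017 genes. No threshold on the values was used, but the list was chosen with earlier results of these data known. Gene expression had been measured by RNA sequencing in 12 libraries of mouse bone marrow LSK cells (Lin- Sca1+ cKit+), a compartment of blood stem cells and early progenitors. The mice, per their labels, had the mixed background C57BL/6J; Sv/129, all libraries carry batch 1, and ages are not given. There were 4 groups of 3 libraries. By their labels, the group NOTCHWT_TCFWT was wild type, and the group NICD_TCFWT carried R26 N1IC lox/+ with Mx1Cre, an inducible active form of Notch1. NOTCHWT_TCFKO was labelled as Tcf7 lox/lox with Mx1Cre, for deletion of the gene of the transcription factor TCF-1, and NICD_TCFKO as both. Per the labels, mice of all groups received poly(I:C) at 2 ug/g, an interferon-inducing RNA mimic that activates Mx1Cre in blood-forming cells and in other tissues that respond to interferon. LSK cells of both NICD groups were gated in addition on CD45.2+ eGFP+, so the NICD label and this gate cannot be told apart. In comparisons with the group labelled wild type, Mx1Cre, named only for the other groups, cannot be told apart from the NICD or Tcf7 label. The labels do not say whether the 3 libraries of a group came from separate mice, so the p-values cover the spread between samples that may be technical.

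Chemokines are small secreted proteins that guide the migration of leukocytes by binding to G protein-coupled receptors on their surface. CC chemokines of the macrophage inflammatory protein group attract monocytes, macrophages and other leukocytes, and several CXC chemokines attract neutrophils or activated T cells. In bone marrow, CXCR4 and its ligand CXCL12 hold stem and progenitor cells in place. CCR7, CCR9 and CXCR4 are the receptors best known for the seeding of the thymus by marrow progenitors, and they are given apart from the other receptors below.

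Total counts ranged from 30453271 to 43790674 per library. Levels are in CPM, the count scaled to a common TMM-adjusted library size and not corrected for gene length. On its total count, before the TMM adjustment, 3 counts in the shallowest library come to 0.0985 CPM. The genes named by the labels went against them in part. In the order NOTCHWT_TCFWT, NICD_TCFWT, NICD_TCFKO and NOTCHWT_TCFKO as labelled, Tcf7 had mean levels of 14.8, 5.50, 603 and 1.28 CPM, and Notch1 had 571, 180, 774 and 149 CPM. Dtx1, a Notch target, had 85.4, 0.124, 121 and 0.209 CPM in the same order. The sample titles give these groups further names, RAD for NOTCHWT_TCFWT, RNIC-CTRL for NICD_TCFWT, RNIC-Tg for NICD_TCFKO and Tcf7-Tg for NOTCHWT_TCFKO. Whether groups were exchanged when the labels were made was not tested, and an exchange would change what each comparison and the sign of the interaction stand for. Every direction below is therefore one between libraries as labelled. The gate markers Kit (609.7 to 978 CPM) and Ly6a (33.1 to 148 CPM), which encode cKit and Sca1, were present in all 12 libraries. Their levels were not all alike. At an edgeR adjusted p under 0.05, Ly6a was lower in NOTCHWT_TCFKO than in NOTCHWT_TCFWT as labelled. It was higher in NICD_TCFKO than in NOTCHWT_TCFKO and in the interaction described below. Kit was called in no comparison. Some libraries stood apart from their group. In those labelled NOTCHWT_TCFKO, replicate 2 had the neutrophil gene S100a8 at 593 CPM against 18.7 and 5.84 CPM. Summed over 11 granulocyte and monocyte markers, however, replicates 1, 2 and 3 of that group had 7573, 10080 and 1786 CPM. By that sum replicate 3 was the one apart. In those labelled NICD_TCFWT, replicate 3 had the neutrophil elastase gene Elane at 307 CPM against 8.93 and 12.9 CPM. In those labelled NICD_TCFKO, replicate 1 had Cd3e at 3.88 CPM against 26.0 and 28.6 CPM.

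Markers of other cell types differed between the groups. Summed over 11 granulocyte and monocyte markers, the libraries labelled wild type had 180 to 335 CPM, against 1841 to 6464 CPM for the label NICD_TCFWT, 459 to 1454 CPM for NICD_TCFKO and 1786 to 10080 CPM for NOTCHWT_TCFKO, with no marker at 0 counts. Summed over 11 macrophage markers they were 14.6 to 20.1, 24.3 to 43.4, 23.6 to 28.1 and 360 to 518 CPM in the same order. Marco and Timd4 were at 0 counts in the libraries labelled NOTCHWT_TCFWT and NICD_TCFKO, and Marco in those labelled NICD_TCFWT. The 10 T cell markers summed to 360 to 399.8, 31.2 to 52.7, 824 to 2471 and 26.5 to 47.3 CPM, with Cd3g and Ptcra at 0 counts in the libraries labelled NICD_TCFWT and Ptcra in those labelled NOTCHWT_TCFKO. The part of these cells in the results below was not tested, and in bulk RNA fewer cells of a type and less RNA per cell cannot be told apart.

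In the libraries labelled NOTCHWT_TCFWT, 11 of the 34 genes reached a mean of 1 CPM, against 19 in those labelled NICD_TCFWT, 19 in those labelled NICD_TCFKO and 20 in those labelled NOTCHWT_TCFKO. Per kilobase of exon, Cxcr4 had the highest level of all members in the libraries labelled NOTCHWT_TCFWT (31.9 CPM per kb), ahead of Cxcl10 (9.48), Ccl4 (9.28) and Ccrl2 (6.88). The order differed in the libraries labelled NICD_TCFWT, where Ccl9 (78.4 CPM per kb) and Ccr2 (74.9) came before Ccl3 (53.7) and Cxcr4 (50.04). Under the label NICD_TCFKO, Cxcr4 (80.6 CPM per kb) again stood first, ahead of Ccr2 (17.2), Ccl3 (15.6) and Ccl4 (12.1). In those labelled NOTCHWT_TCFKO the order was Cxcr4 (55.2), Ccl3 (42.7), Ccl9 (37.1) and Ccl4 (24.8). Libraries of neighbours in these orders often overlapped in level, and the orders are given as a description with no test. Of the 34 genes, 25 had enough counts to be tested, and these are not all members: Ccl17, Ccl22, Ccl24, Xcl1, Ccr4, Ccr6, Ccr8, Ackr2 and Ackr3 were not tested.

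What went with the labels N1IC and Mx1Cre, with Tcf7 labelled intact, was addressed by the libraries labelled NICD_TCFWT and NOTCHWT_TCFWT. Of 12 tested ligands, Ccl3, Ccl4, Ccl6, Ccl9 and Ppbp rose and the interferon-induced Cxcl10 fell in the libraries labelled NICD_TCFWT. Of 5 myeloid receptors, Ccr1, Ccr2 and Cxcr2 rose, and Ccr3 and Cx3cr1 were not called. These were 8 higher and 1 lower of 25 tested members at an adjusted p under 0.05, while 10.6% of all 16024 genes tested were higher and 9.75% were lower. The median log2 fold change was 1.12 over the tested members and 0.000 over all genes tested. Changes are given as log2 fold change ± SE, each followed by its Benjamini-Hochberg adjusted p from edgeR's quasi-likelihood F test over all genes tested. The count of 8 became 4 without NOTCHWT_TCFWT replicate 1 and 5 without NOTCHWT_TCFWT replicate 3.

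With the N1IC label in both groups, the libraries labelled NICD_TCFKO had less Ccl3, Ccl9 and Ppbp and more Cxcr5 than those labelled NICD_TCFWT. That is 1 member higher, where the background was 7.25% of all genes tested, and 3 lower, where it was 5.15%. The median log2 fold change of the tested members was -0.35, against 0.000 over all genes tested. Without NICD_TCFKO replicate 1, 3 members were higher and 5 lower. The only higher call, that of Cxcr5, was lost without any 1 of 10 libraries, which are named with its values below.

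The libraries labelled NOTCHWT_TCFKO differed from those labelled NOTCHWT_TCFWT by the Tcf7 label and by Mx1Cre, which cannot be told apart. Here Ccl3, Ccl4, Ccl6, Ccl9, Ccr2, Ccr3, Ccr7, Cxcr2, Cxcr3 and Cxcr4 rose and Cxcl10 fell. These 10 higher and 1 lower members stood beside a background of 10.8% higher and 10.5% lower. Their median log2 fold change was 1.95, against 0.001 over all genes tested. The count of 10 became 6, 5 and 5 without NOTCHWT_TCFWT replicates 1, 2 and 3, and it was 7 without NOTCHWT_TCFKO replicate 2. The lower count became 0 without NOTCHWT_TCFWT replicate 1 or 3, and 2 without NOTCHWT_TCFWT replicate 2 or any 1 library of NICD_TCFWT or NICD_TCFKO. Since this comparison and the first share the libraries labelled wild type, the genes called in both are given side by side below and not as support for each other.

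Between the groups labelled as Tcf7-deleted, the libraries labelled NICD_TCFKO had less Ccl3, Ccl9, Ppbp, Ccr3 and Cxcr3 and more Cxcr5 than those labelled NOTCHWT_TCFKO. The 1 higher and 5 lower members stood beside a background of 10.3% and 8.06%. The median log2 fold change of the tested members was -0.57, against 0.004 over all genes tested. Without NOTCHWT_TCFKO replicate 2, 3 members were higher and 2 lower, and without NICD_TCFKO replicate 1, 3 were higher and 5 lower. The higher call was lost without NICD_TCFKO replicate 2 or NOTCHWT_TCFKO replicate 1 or 3, and the lower count was 1 without NICD_TCFKO replicate 2 and 3 without NICD_TCFKO replicate 3 or NOTCHWT_TCFKO replicate 1. Of these genes, Ccl3, Ccl9 and Ppbp had risen in NICD_TCFWT against NOTCHWT_TCFWT, and the test of that difference (the interaction) follows the genes.

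**Figure D1:**
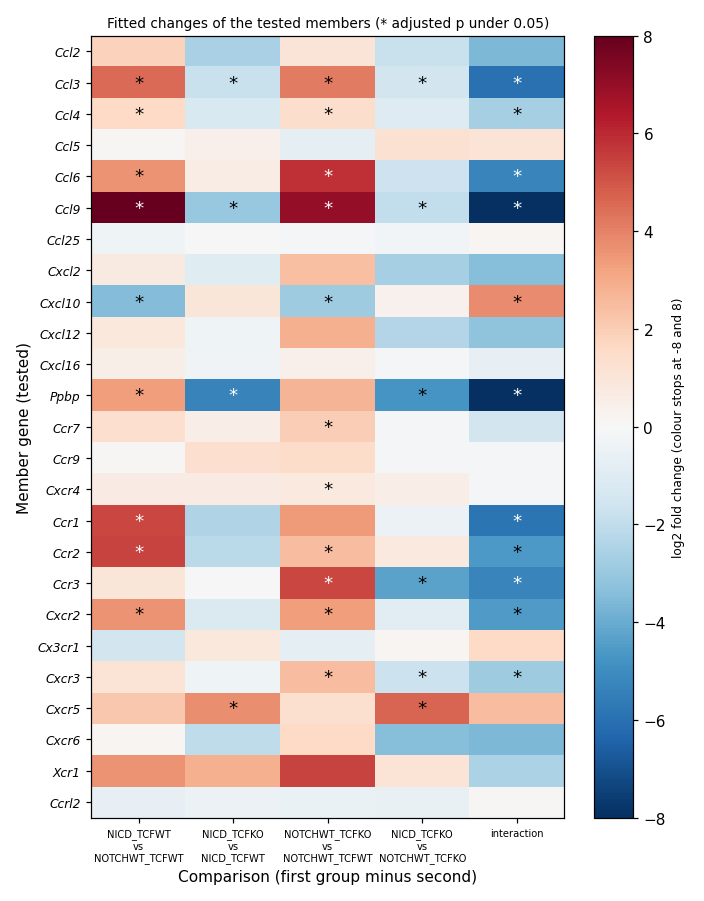
Fitted log2 fold change (colour, capped at -8 and 8) of the 25 tested genes (rows) in the 4 pairwise comparisons and the interaction (columns, first group minus second by label), with a star where the adjusted p was under 0.05. The CC ligands, Ppbp and the myeloid receptors are mostly red in both columns against NOTCHWT_TCFWT and blue in the last, where 10 genes are lower and Cxcl10 is higher.

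Among the ligands, the CC chemokine genes Ccl5, Ccl9, Ccl6, Ccl3 and Ccl4 lie in a row on mm10 chromosome 11 (83525778 to 83664683), with 42.4, 9.2, 54.8 and 13.2 kb between neighbours. Of these, Ccl9, Ccl6, Ccl3 and Ccl4 rose together in NICD_TCFWT and in NOTCHWT_TCFKO, each against NOTCHWT_TCFWT. The receptor genes Ccr1, Ccr3 and Ccr2, which had different patterns, lie in a row on chromosome 9 (123962124 to 124113557) with 53.3 and 70.3 kb between them. The starts of these 6 genes, where RefSeq has an entry, show what sequence such neighbours do and do not share. They are from RefSeq, build GRCm38.p6 (250 bases before and 50 after the start, 5′ to 3′ on the gene's strand), and capitals mark matches on either strand to TGGGAA (a core of RBPJ, the DNA-binding partner of Notch), CTTTGA (a core of TCF/LEF factors) or GAGGAA (a core of PU.1, a myeloid factor). The windows are chr11:83578587-83578886 (Ccl9), chr11:83593038-83593337 (Ccl6), chr11:83649329-83649628 (Ccl3), chr9:123968643-123968942 (Ccr1), chr9:124021721-124022020 (Ccr3) and chr9:124101933-124102232 (Ccr2), with the Ccl genes and Ccr1 on the minus strand.
Ccl9: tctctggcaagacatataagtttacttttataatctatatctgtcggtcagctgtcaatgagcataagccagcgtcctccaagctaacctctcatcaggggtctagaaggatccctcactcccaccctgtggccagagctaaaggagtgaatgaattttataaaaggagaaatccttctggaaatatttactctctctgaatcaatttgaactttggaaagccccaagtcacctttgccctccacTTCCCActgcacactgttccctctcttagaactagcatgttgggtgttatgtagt
Ccl6: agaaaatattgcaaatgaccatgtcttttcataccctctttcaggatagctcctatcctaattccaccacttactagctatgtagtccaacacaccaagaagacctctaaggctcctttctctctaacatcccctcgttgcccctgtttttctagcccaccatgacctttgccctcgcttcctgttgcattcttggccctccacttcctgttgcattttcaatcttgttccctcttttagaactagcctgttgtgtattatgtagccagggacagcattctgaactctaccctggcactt
Ccl3: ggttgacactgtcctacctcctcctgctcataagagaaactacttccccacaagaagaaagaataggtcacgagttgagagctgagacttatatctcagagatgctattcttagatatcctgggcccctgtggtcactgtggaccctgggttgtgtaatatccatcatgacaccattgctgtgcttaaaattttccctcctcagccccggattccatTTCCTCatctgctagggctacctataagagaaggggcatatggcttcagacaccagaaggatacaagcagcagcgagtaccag
Ccr1: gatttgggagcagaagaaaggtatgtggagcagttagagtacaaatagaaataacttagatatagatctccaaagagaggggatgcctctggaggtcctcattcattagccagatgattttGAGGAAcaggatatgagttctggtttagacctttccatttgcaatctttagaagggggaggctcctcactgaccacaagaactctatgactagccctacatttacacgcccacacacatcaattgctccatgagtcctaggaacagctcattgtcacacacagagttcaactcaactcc
Ccr3: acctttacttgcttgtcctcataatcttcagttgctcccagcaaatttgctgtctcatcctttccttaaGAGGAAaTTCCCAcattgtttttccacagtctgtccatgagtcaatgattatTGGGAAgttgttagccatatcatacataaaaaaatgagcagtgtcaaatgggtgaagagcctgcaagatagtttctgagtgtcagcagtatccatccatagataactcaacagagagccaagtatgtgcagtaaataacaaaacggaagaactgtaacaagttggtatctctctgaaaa
Ccr2: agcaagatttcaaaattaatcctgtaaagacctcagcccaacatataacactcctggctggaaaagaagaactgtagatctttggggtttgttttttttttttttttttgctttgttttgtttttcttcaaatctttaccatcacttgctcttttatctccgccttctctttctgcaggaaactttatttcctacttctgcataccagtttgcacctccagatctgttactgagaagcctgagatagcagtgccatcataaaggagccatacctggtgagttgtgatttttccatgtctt
The Ccl9 window held 1 match to the RBPJ letters on its minus strand, with the first base at -5 from the start. In the Ccl3 window there was 1 match to the PU.1 letters on the minus strand at -33, and the Ccl6 window held none of the 3 motifs although Ccl6 rose with its neighbours. The Ccr1 window held 1 match to the PU.1 letters at -129. Ccr3 had a PU.1 match at -181 and RBPJ matches at -174 and -129, and Ccr2 had no match. The letters are common: 25.6% of 32851 promoters of this length hold TGGGAA, 16% hold CTTTGA and 28.3% hold GAGGAA. Of the 31 promoters found for 27 members, 8 (25.8%) hold each of them, and no matches overlap. No promoter was found for Ccl2, Ccl4, Ccl5, Ccl24, Ccr7, Cxcl16 and Cxcr5, so these were not searched for the motifs.

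Ccl9, a CC chemokine of the macrophage inflammatory protein group, showed the widest range of all ligands. The libraries labelled NOTCHWT_TCFWT had 0.461, 0.760 and 1.31 CPM, while those labelled NICD_TCFWT had 158, 202 and 356 CPM. Values of 22.9, 19.7 and 44.9 CPM were found under the label NICD_TCFKO, and of 124, 152 and 62.5 CPM under NOTCHWT_TCFKO. The 4 groups did not overlap: the libraries labelled wild type were lowest, those labelled NICD_TCFKO came next, and those labelled NICD_TCFWT were highest. The log2 fold change was 8.10 ± 0.65 (SE; adjusted p = 7.09e-05) for NICD_TCFWT against NOTCHWT_TCFWT and 7.02 ± 0.63 (9.97e-05) for NOTCHWT_TCFKO against NOTCHWT_TCFWT. It was -3.03 ± 0.49 (0.00497) for NICD_TCFKO against NICD_TCFWT, which held without any 1 library. It was -1.95 ± 0.47 (0.0203) for NICD_TCFKO against NOTCHWT_TCFKO. This last call was lost without replicate 1 or 2 of either of its groups, with adjusted p from 0.0568 to 0.0844, and with only both groups fitted (0.0653).

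Ccl3, which encodes macrophage inflammatory protein 1-alpha, a ligand of CCR1, followed a similar order at lower levels. With the label NOTCHWT_TCFWT its levels were 1.76, 1.65 and 1.96 CPM, and with NICD_TCFWT they were 34.6, 55.5 and 33.3 CPM. Libraries labelled NICD_TCFKO had 14.7, 6.25 and 14.9 CPM, and libraries labelled NOTCHWT_TCFKO had 33.3, 47.4 and 17.5 CPM. Libraries labelled wild type were lowest, those labelled NICD_TCFKO came next, and neither overlapped with any other group. The fitted log2 fold change against NOTCHWT_TCFWT was 4.52 ± 0.46 (adjusted p = 0.00018) for NICD_TCFWT and 4.19 ± 0.45 (0.000199) for NOTCHWT_TCFKO. For NICD_TCFKO it was -1.79 ± 0.40 (0.0191) against NICD_TCFWT and -1.45 ± 0.40 (0.0317) against NOTCHWT_TCFKO. The first of these was lost without replicate 2 of either group, NICD_TCFWT (adjusted p = 0.0706) or NICD_TCFKO (0.0614). The second was lost without NICD_TCFKO replicate 2 or 3 or NOTCHWT_TCFKO replicate 1 or 2, with adjusted p from 0.0552 to 0.107, without the filter on low counts (0.0501) and with only both groups fitted (0.121).

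Ccl4, the neighbouring gene for macrophage inflammatory protein 1-beta, was also present in the libraries labelled wild type. Its levels were 6.23, 7.27 and 4.88 CPM under the label NOTCHWT_TCFWT, against 16.5, 25.6 and 13.8 CPM under NICD_TCFWT. For NICD_TCFKO as labelled they were 12.9, 3.70 and 7.37 CPM, and for NOTCHWT_TCFKO 16.9, 19.8 and 12.5 CPM. The libraries labelled NICD_TCFWT and NOTCHWT_TCFKO lay above all libraries labelled wild type, while those labelled NICD_TCFKO spread from below the range of those labelled wild type to above it. In the fit the log2 fold change against NOTCHWT_TCFWT was 1.60 ± 0.41 (adjusted p = 0.0193) for NICD_TCFWT and 1.42 ± 0.40 (0.0301) for NOTCHWT_TCFKO. The first was lost without NOTCHWT_TCFWT replicate 1 or 3 or NICD_TCFWT replicate 2, with adjusted p from 0.0624 to 0.0759. The second was lost without any 1 library labelled wild type and without NOTCHWT_TCFKO replicate 1 or 2, with adjusted p from 0.0544 to 0.101, and with the library sheet covariate (0.0506). A covariate for Y-linked transcripts, chosen after seeing the data, ended both (0.0736 and 0.0712). By it 5 libraries lay above a threshold of 10 CPM, and 0 of those were labelled NOTCHWT_TCFWT. The covariate was therefore partly tied to every comparison against that group. For NICD_TCFKO the log2 fold change was -1.22 ± 0.40 (0.0716) against NICD_TCFWT and -1.04 ± 0.40 (0.0976) against NOTCHWT_TCFKO, neither past the threshold.

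Ccl6, a further CC chemokine of myeloid cells and the nearest neighbour of Ccl9, had its highest levels in the libraries labelled NOTCHWT_TCFKO. Libraries labelled wild type had 0.202, 0.0992 and 0.327 CPM, and libraries labelled NICD_TCFWT had 1.79, 1.85 and 4.36 CPM. The levels were 1.78, 2.88 and 7.27 CPM for the label NICD_TCFKO and 6.71, 25.8 and 4.90 CPM for NOTCHWT_TCFKO. The libraries labelled wild type were below all others, and the other 3 groups overlapped in part. The log2 fold change against NOTCHWT_TCFWT was 5.84 ± 0.91 (adjusted p = 0.00158) for NOTCHWT_TCFKO. For NICD_TCFWT it was 3.62 ± 0.84 (0.0139), lost without NOTCHWT_TCFWT replicate 1 (0.0551) or 2 (0.0521) and with limma-voom (0.142). Unlike its neighbours Ccl3 and Ccl9, it was not called between NICD_TCFKO and NICD_TCFWT, with 0.58 ± 0.72 (0.645), and that difference between genes was not tested.

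Cxcl10 encodes an interferon-induced ligand of CXCR3, and it was the only member called lower than in the libraries labelled wild type. The libraries labelled NOTCHWT_TCFWT had 23.4, 7.77 and 32.9 CPM, while those labelled NICD_TCFWT had 3.50, 1.70 and 0.595 CPM. Values of 6.53, 2.91 and 1.87 CPM were found under the label NICD_TCFKO, and of 4.41, 2.55 and 2.04 CPM under NOTCHWT_TCFKO. Libraries labelled wild type, which had received poly(I:C) too, were above all 9 others, which overlapped with each other. The fitted log2 fold change against NOTCHWT_TCFWT was -3.47 ± 0.76 (adjusted p = 0.0111) for NICD_TCFWT and -2.83 ± 0.74 (0.0221) for NOTCHWT_TCFKO. The second was lost without NOTCHWT_TCFWT replicate 1 or 3 or NOTCHWT_TCFKO replicate 2 or 3, with adjusted p from 0.0590 to 0.0761. Cxcl10 shares 133 exon bases with Art3 on the opposite strand, and whether counting used strand is not given in the sources used here. Summed NK and innate lymphoid markers were also highest in the libraries labelled wild type, at 818 to 1586 CPM against 124 to 589 CPM in the others. The 9 tested markers were split. In NICD_TCFWT against NOTCHWT_TCFWT, Klrb1c, Il7r and Zbtb16 were higher (33.3%, beside 10.6% of all genes tested). Nkg7, Gzma, Gzmb and Prf1 were lower (44.4%, beside 9.75%). In NOTCHWT_TCFKO against NOTCHWT_TCFWT, Il7r and Zbtb16 were higher (22.2%, beside 10.8%) and Nkg7, Gzmb and Prf1 lower (33.3%, beside 10.5%). The part of those cells in the Cxcl10 levels was not tested.

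Ppbp, a CXC chemokine stored in platelets and megakaryocytes, was low throughout. With the label NOTCHWT_TCFWT its levels were 0.144, 0.198 and 0 CPM, and with NICD_TCFWT they were 1.22, 1.08 and 1.16 CPM. Libraries labelled NICD_TCFKO had 0, 0 and 0.0747 CPM, and libraries labelled NOTCHWT_TCFKO had 0.846, 0.398 and 0.970 CPM. The libraries labelled NICD_TCFKO held 3 counts in all, against 130 in those labelled NICD_TCFWT, a ratio of 46.7 (95% exact binomial interval 15.6 to 229, counting error only), and 87 in those labelled NOTCHWT_TCFKO, a ratio of 30.2 (9.99 to 149). The adjusted p of the fitted change was 0.01 for NICD_TCFKO against NICD_TCFWT. Against NOTCHWT_TCFKO it was 0.0133, and 0.0515 without NICD_TCFKO replicate 2. The rise in NICD_TCFWT over NOTCHWT_TCFWT was 3.37 ± 0.92 on the log2 scale (0.0253), and it was lost without NOTCHWT_TCFWT replicate 1 or 3 or any 1 library labelled NICD_TCFWT, with adjusted p from 0.0553 to 0.0762, or with the Y-linked covariate (0.0519). The 8 megakaryocyte markers summed to 288 to 349.7, 416 to 529, 158 to 271 and 298 to 376 CPM in the groups NOTCHWT_TCFWT, NICD_TCFWT, NICD_TCFKO and NOTCHWT_TCFKO as labelled, with none at 0 counts. Their part in the Ppbp levels was not tested.

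**Figure D2:**
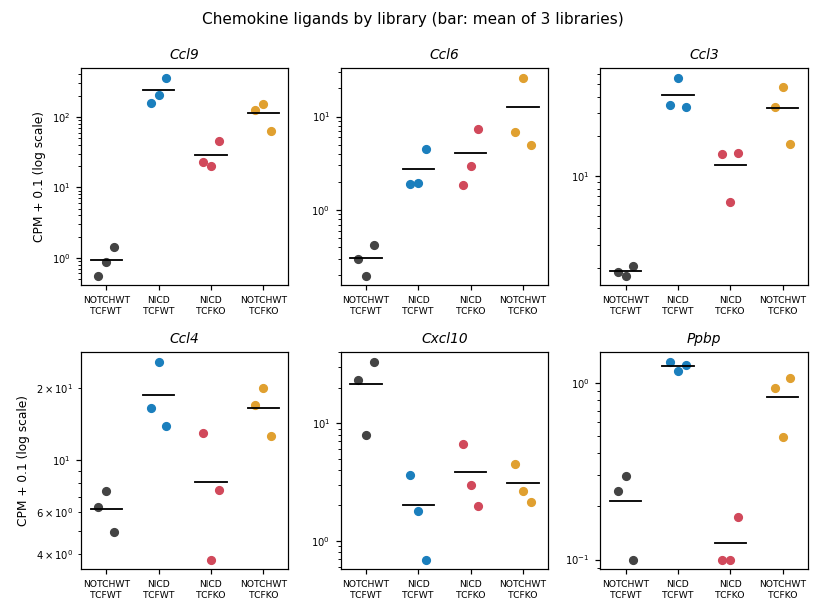
Levels of 6 ligands by library (points, CPM plus 0.1 on a log axis) in the 4 groups as labelled, with a bar at the mean of 3 libraries. Ccl9, Ccl3 and Ccl6 lie lowest in the libraries labelled wild type, Cxcl10 lies highest there, and Ppbp is near 0 in the libraries labelled NICD_TCFKO.

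The other tested ligands were not called in any comparison. Ccl5, an attractant of T cells and the fifth gene of the chromosome 11 row, was at 0.766 to 6.10 CPM, and its fitted changes ranged from -0.72 ± 0.55 to 1.22 ± 0.55 in the pairwise comparisons. Ccl25, the ligand of CCR9, had 1.47 to 2.81 CPM in all libraries. Its changes were small, from -0.36 ± 0.25 to -0.04 ± 0.25. Cxcl16, the ligand of CXCR6, was at 0.500 to 1.72 CPM. On the opposite strand, Ccl25 shares 204 exon bases with Elavl1 and Cxcl16 shares 552 with Zmynd15. Without strand, reads of such genes cannot be told apart. Cxcl12, the ligand of CXCR4 made by marrow stroma, was at 0.0250 to 1.24 CPM, with a log2 fold change of 2.85 ± 0.96 (adjusted p = 0.0567) for NOTCHWT_TCFKO against NOTCHWT_TCFWT. The neutrophil attractant Cxcl2 was at 0 to 2.85 CPM and the monocyte attractant Ccl2 at 0 to 1.49 CPM. Ccl17 and Ccl22, ligands of CCR4, had at most 0.808 and 0.0968 CPM, Ccl24 at most 0.165 CPM and Xcl1, the ligand of XCR1, at most 0.584 CPM. With no count in the libraries labelled NOTCHWT_TCFWT, Ccl22 was not detectable there at this depth.

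Of the myeloid receptors, Ccr2, the receptor through which monocytes and some progenitors leave the marrow, had the highest level. Its levels were 15.6, 9.52 and 10.95 CPM under the label NOTCHWT_TCFWT, against 424, 448 and 648 CPM under NICD_TCFWT. For NICD_TCFKO as labelled they were 79.0, 94.1 and 175 CPM, and for NOTCHWT_TCFKO 45.1, 144 and 13.1 CPM. The libraries labelled NICD_TCFWT were above all others, and 1 of those labelled NOTCHWT_TCFKO lay within the range of those labelled wild type. For NICD_TCFWT against NOTCHWT_TCFWT the log2 fold change was 5.40 ± 0.83 (adjusted p = 0.0025), and it held without any 1 library. For NOTCHWT_TCFKO against NOTCHWT_TCFWT it was 2.48 ± 0.74 (0.0414). That call was lost without any 1 of 10 libraries, all but NICD_TCFKO replicate 3 and NOTCHWT_TCFKO replicate 3, with adjusted p from 0.0509 to 0.15 and a change of 1.28 without NOTCHWT_TCFKO replicate 2. It was also lost without the filter on low counts (0.0766), with limma-voom (0.178) and with only both groups fitted (0.146). For NICD_TCFKO against NICD_TCFWT it was -2.13 ± 0.71 (0.0835) although these groups did not overlap.

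Ccr1, a receptor of CCL3, CCL6 and CCL9 on myeloid cells, lies 53.3 kb from Ccr3. Libraries labelled wild type had 0.433, 0.298 and 0.770 CPM, and libraries labelled NICD_TCFWT had 13.4, 14.9 and 33.8 CPM. The levels were 1.35, 1.53 and 8.74 CPM for the label NICD_TCFKO and 1.77, 13.0 and 1.31 CPM for NOTCHWT_TCFKO. The libraries labelled wild type were lowest and those labelled NICD_TCFWT highest, without overlap. In the fit the log2 fold change between them was 5.34 ± 1.18 (adjusted p = 0.0124), with 0.0528 without NOTCHWT_TCFWT replicate 1. In each group labelled TCFKO 1 library was far above the others, and those were the libraries with the highest summed granulocyte and monocyte markers of their group (1454 and 10080 CPM), while NOTCHWT_TCFKO replicate 1 had a sum of 7573 CPM with Ccr1 at 1.77 CPM. The part of those cells in the Ccr1 levels was not tested. The change for NOTCHWT_TCFKO against NOTCHWT_TCFWT was 3.39 ± 1.10 (0.0548) and did not pass the threshold.

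Ccr3, the eotaxin receptor of eosinophils and basophils, differed from its neighbours. The libraries labelled NOTCHWT_TCFWT had 0.721, 0.529 and 0.560 CPM, while those labelled NICD_TCFWT had 0.679, 0.823 and 2.11 CPM. Values of 0.975, 1.02 and 1.67 CPM were found under the label NICD_TCFKO, and of 23.7, 28.0 and 21.1 CPM under NOTCHWT_TCFKO. All 3 libraries labelled NOTCHWT_TCFKO stood at 21.1 CPM or more, against at most 2.11 CPM in the 9 others. The log2 fold change was 5.32 ± 0.45 (adjusted p = 2.74e-05) against NOTCHWT_TCFWT, and it was -4.31 ± 0.42 (0.000103) for NICD_TCFKO against NOTCHWT_TCFKO. Both held without any 1 library, NOTCHWT_TCFKO replicate 2 included. In the same libraries all 10 tested macrophage markers were higher than in those labelled wild type, with the sums of 360 to 518 CPM given above. The 9 markers of mast cells, basophils and eosinophils summed to 622 to 826 CPM in the libraries labelled NOTCHWT_TCFWT, 356 to 374 in those labelled NICD_TCFWT, 373 to 413 in those labelled NICD_TCFKO and 277 to 732 in those labelled NOTCHWT_TCFKO. Of these 9, all tested, Tpsb2 and Prg2 were higher in NOTCHWT_TCFKO than in NOTCHWT_TCFWT (22.2%, beside 10.8% of all genes tested). Cpa3 and Siglecf were lower (22.2%, beside 10.5%). The eosinophil granule gene Prg2 was uneven in the libraries labelled NOTCHWT_TCFKO, at 37.7, 235 and 4.61 CPM. The part of macrophages, eosinophils and basophils in the Ccr3 levels was not tested.

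Cxcr2, the neutrophil receptor of PPBP and CXCL2, had 1.53, 0.992 and 0.607 CPM in the libraries labelled wild type and 8.14, 8.28 and 20.9 CPM under the label NICD_TCFWT. Under the label NICD_TCFKO it had 3.60, 3.87 and 9.39 CPM, and under NOTCHWT_TCFKO 7.50, 21.8 and 2.81 CPM. Libraries labelled wild type were below all others, and the other 3 groups overlapped. The fitted log2 fold change against NOTCHWT_TCFWT was 3.58 ± 0.80 (adjusted p = 0.0116) for NICD_TCFWT, with 0.0529 without NOTCHWT_TCFWT replicate 3. For NOTCHWT_TCFKO it was 3.36 ± 0.79 (0.0137), with 0.0506 and 0.0578 as the lowest and highest without NOTCHWT_TCFWT replicate 2 or 3, and 0.0804 with limma-voom. Cx3cr1, the fractalkine receptor of monocytes and macrophages, was at 3.64 to 31.4 CPM and was not called. Its log2 fold change was -1.49 ± 0.72 (0.179) for NICD_TCFWT against NOTCHWT_TCFWT.

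**Figure D3:**
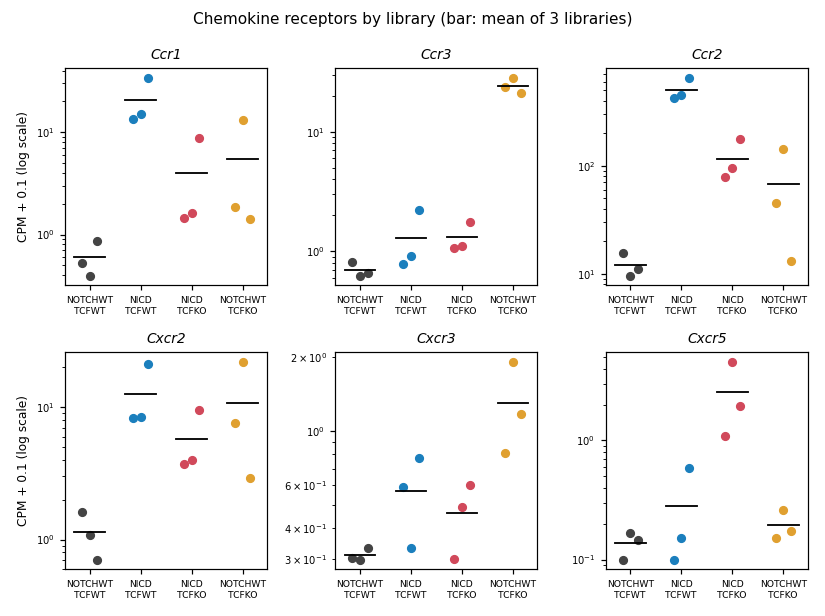
Levels of 6 receptors outside the thymus-homing group by library (points, CPM plus 0.1 on a log axis) in the 4 groups as labelled, with a bar at the mean of 3 libraries. Ccr2 and Ccr1 peak in the libraries labelled NICD_TCFWT, Ccr3 and Cxcr3 in those labelled NOTCHWT_TCFKO and Cxcr5 in those labelled NICD_TCFKO.

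Receptors of lymphoid and dendritic cells were low. Cxcr3, the receptor of CXCL10 on activated T and NK cells, had 0.202, 0.198 and 0.233 CPM in the libraries labelled wild type and 0.489, 0.231 and 0.676 CPM under the label NICD_TCFWT. Under the label NICD_TCFKO it had 0.200, 0.387 and 0.498 CPM, and under NOTCHWT_TCFKO 0.713, 1.81 and 1.07 CPM. The libraries labelled NOTCHWT_TCFKO were above the 9 others. In the fit the log2 fold change was 2.48 ± 0.53 (adjusted p = 0.00732) against NOTCHWT_TCFWT, which held without any 1 library. For NICD_TCFKO against NOTCHWT_TCFKO it was -1.71 ± 0.50 (0.0371), lost without any 1 of NOTCHWT_TCFWT replicates 1 and 3, NICD_TCFWT replicate 1, the 3 libraries labelled NICD_TCFKO and NOTCHWT_TCFKO replicate 2, with adjusted p from 0.0508 to 0.146, and with only both groups fitted (0.0971). In the libraries labelled NOTCHWT_TCFKO, T cell markers summed to 26.5 to 47.3 CPM, against 31.2 to 2471 CPM in the others. NK and innate lymphoid markers summed to 124 to 165 CPM there, against 160 to 1586 CPM. Both lists were split against NOTCHWT_TCFWT, the second as given for Cxcl10. Of 10 tested T cell markers, Cd4 and Cd8a were higher in NOTCHWT_TCFKO (20%, beside 10.8% of all genes tested). Trbc1, Trbc2 and Lck were lower (30%, beside 10.5%). The part of those cells in the Cxcr3 levels was not tested.

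Cxcr5, the receptor by which B cells and follicular helper T cells enter follicles, was found mainly in the libraries labelled NICD_TCFKO, at 1.00, 4.46 and 1.84 CPM. The libraries labelled wild type had 0, 0.0661 and 0.0467 CPM, with 0, 0.0514 and 0.487 CPM for the label NICD_TCFWT and 0.0528, 0.159 and 0.0727 CPM for NOTCHWT_TCFKO. Every library labelled NICD_TCFKO was above the 9 others. Counts were 298 in that group, against 4 in NOTCHWT_TCFWT, 20 in NICD_TCFWT and 11 in NOTCHWT_TCFKO as labelled. Cxcr5 therefore passed the filter on low counts through the group where it was high. That it was tested at all depended on this group, and the separation is given as a description. The log2 fold change was 4.64 ± 1.14 (adjusted p = 0.0192) against NOTCHWT_TCFKO, lost without NICD_TCFKO replicate 2 or NOTCHWT_TCFKO replicate 1 or 3 (0.0521 to 0.0801). Against NICD_TCFWT it was 3.74 ± 1.07 (0.0454), lost without any 1 of 10 libraries, all but NICD_TCFWT replicate 3 and NICD_TCFKO replicate 1 (0.0501 to 0.163), without the filter on low counts (0.0632) and with only both groups fitted (0.0979). The T cell markers were highest in the same libraries (824 to 2471 CPM), and the B cell markers were not, with sums of 28.0 to 30.6 CPM against 22.9 to 64.3 CPM in the others. The part of T and B cells in the Cxcr5 levels was not tested. Cxcr5 shares 110 exon bases with Bcl9l on the opposite strand.

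Xcr1, the receptor of cross-presenting dendritic cells, was at 0 to 0.0577 CPM in the libraries labelled NOTCHWT_TCFWT, 0 to 1.38 CPM in those labelled NICD_TCFWT, 0.150 to 7.02 CPM in those labelled NICD_TCFKO and 1.195 to 1.98 CPM in those labelled NOTCHWT_TCFKO. It was not called, with a log2 fold change of 5.40 ± 1.81 (adjusted p = 0.0597) for NOTCHWT_TCFKO against NOTCHWT_TCFWT. Cxcr6, found on tissue-resident T and NK cells, was at 0 to 1.46 CPM and was not called either. Ccr6, a receptor of mature B cells and of some T and dendritic cells, had 95 counts in the libraries labelled NICD_TCFKO, at 0.1, 0.896 and 1.35 CPM, against 3 counts in those labelled NICD_TCFWT. That is a ratio of 29.4 (interval 9.75 to 145), from counts too low for the test. Ccr4 had counts in the libraries labelled NICD_TCFKO (12) and NOTCHWT_TCFWT (3) and none in the others, and Ccr8 had 1 count in all. Among the atypical receptors, which bind chemokines without G protein signalling, Ackr2 had 6 counts in all. The CXCL12 scavenger Ackr3 had 17 counts in the libraries labelled NOTCHWT_TCFWT and 1 in those labelled NICD_TCFWT, a ratio of 17.8 (2.79 to 743). Ccrl2, a chemerin-binding receptor, was at 4.67 to 18.9 CPM. It was highest in the libraries labelled wild type (16.5 to 18.9 CPM), above those labelled NICD_TCFWT (7.12 to 14.1 CPM) and NOTCHWT_TCFKO (8.10 to 14.5 CPM), with log2 fold changes of -0.64 ± 0.39 and -0.55 ± 0.39 that did not pass the threshold (adjusted p = 0.279 and 0.347).

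The thymus-homing receptors were led by Cxcr4, the receptor of CXCL12, at 54.7 to 174 CPM. With the label NOTCHWT_TCFWT its levels were 60.0, 54.7 and 58.5 CPM, and with NICD_TCFWT they were 80.5, 81.8 and 109.1 CPM. Libraries labelled NICD_TCFKO had 98.1, 174 and 165 CPM, and libraries labelled NOTCHWT_TCFKO had 83.8, 117 and 98.2 CPM. Libraries labelled wild type were below all 9 others, and the other 3 groups overlapped in part. The fitted log2 fold change against NOTCHWT_TCFWT was 0.79 ± 0.21 (adjusted p = 0.0219) for NOTCHWT_TCFKO, lost without any 1 library labelled wild type or NOTCHWT_TCFKO replicate 2 (0.0576 to 0.082). For NICD_TCFWT it was 0.65 ± 0.21 (0.0504), just outside the threshold, and it passed with DESeq2 (0.013), the 1 CPM filter (0.0451), the library sheet covariate (0.0489), only both groups fitted (0.00951) and without NICD_TCFKO replicate 1 (0.0101). With the Y-linked covariate this change was 0.985 (0.000364). For NICD_TCFKO it was 0.69 ± 0.21 (0.055) against NICD_TCFWT and 0.55 ± 0.21 (0.0929) against NOTCHWT_TCFKO. Both passed without NICD_TCFKO replicate 1, with changes of 0.90 (0.00477) and 0.75 (0.00977). That library had T cell markers summing to 824 CPM, against 2471 and 1670 CPM in replicates 2 and 3. The part of T cells in the Cxcr4 levels was not tested. Both changes also passed with the Y-linked covariate, at 0.49 (0.0149) and 0.34 (0.0414). The first also passed with DESeq2 (0.0108) and the library sheet covariate (0.0496).

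Ccr7, the receptor of CCL19 and CCL21, had 0.635, 0.298 and 0.654 CPM in the libraries labelled wild type and 2.04, 0.926 and 1.03 CPM under the label NICD_TCFWT. Under the label NICD_TCFKO it had 1.38, 2.08 and 2.19 CPM, and under NOTCHWT_TCFKO 1.30, 0.823 and 4.05 CPM. The libraries labelled wild type were lowest, and the other 3 groups overlapped. In the fit the log2 fold change was 1.95 ± 0.60 (adjusted p = 0.0401) for NOTCHWT_TCFKO against NOTCHWT_TCFWT. That call was lost without any 1 library labelled wild type, NICD_TCFWT replicate 2 or 3, NICD_TCFKO replicate 3 or NOTCHWT_TCFKO replicate 3 (0.0517 to 0.148), with a change of 1.02 without the last. It was also lost with limma-voom (0.109), the library sheet covariate (0.0595), the Y-linked covariate (0.168) and only both groups fitted (0.0926). For NICD_TCFWT against NOTCHWT_TCFWT it was 1.32 ± 0.59 (0.145), and for NICD_TCFKO against NOTCHWT_TCFKO -0.13 ± 0.57 (0.903).

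Ccr9, the receptor of CCL25, had 1.21, 1.55 and 2.54 CPM in the libraries labelled wild type and 3.04, 1.13 and 1.41 CPM under the label NICD_TCFWT. Under the label NICD_TCFKO it had 1.58, 6.10 and 6.20 CPM, and under NOTCHWT_TCFKO 3.33, 1.70 and 9.63 CPM. All groups overlapped, and in the groups labelled TCFKO 3 libraries reached levels above 5 CPM. The log2 fold change was 1.46 ± 0.70 (adjusted p = 0.166) for NOTCHWT_TCFKO against NOTCHWT_TCFWT and 1.31 ± 0.70 (0.238) for NICD_TCFKO against NICD_TCFWT. For the N1IC label it was 0.07 ± 0.69 (0.963) with Tcf7 labelled intact and -0.08 ± 0.68 (0.952) with Tcf7 labelled deleted. Of the Ccr9 exon bases, 1932 are shared with AC165425.1 on the opposite strand and 269 with Gm17200 on the same strand, and without strand the reads of such genes cannot be told apart.

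**Figure D4:**
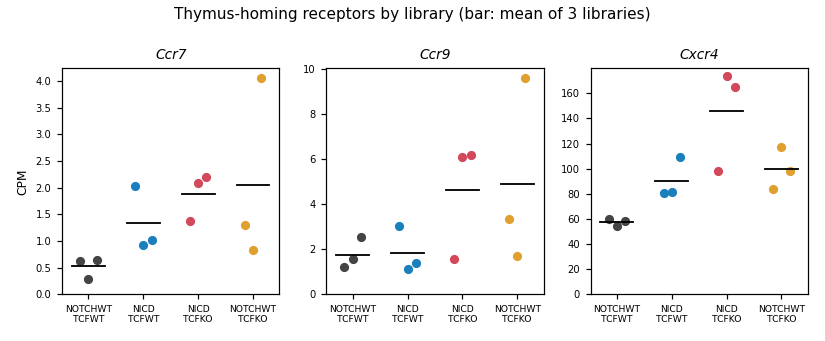
Levels of the 3 thymus-homing receptors by library (points, CPM on linear axes from 0) in the 4 groups as labelled, with a bar at the mean of 3 libraries. Cxcr4 lies between 54.7 and 60.0 CPM in the libraries labelled wild type and above them in the 9 others, while Ccr7 and Ccr9 stay under 10 CPM in each library.

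The interaction asked whether the change that goes with the N1IC label differed between the backgrounds labelled Tcf7-deleted and Tcf7-intact. By the labels, Mx1Cre differed only within the Tcf7-intact pair. For Ccl3, Ccl4, Ccl6, Ccl9, Ppbp, Ccr1, Ccr2, Ccr3, Cxcr2 and Cxcr3 the change was lower in the background labelled Tcf7-deleted, and for Cxcl10 it was higher. These 10 lower and 1 higher members stood beside a background of 13.5% lower and 13.8% higher among all genes tested. The median log2 difference of the tested members was -2.84, against 0.007 over all genes tested. The largest was that of Ccl9 at -10.06 ± 0.79 (adjusted p = 3.04e-05), followed by Ppbp, whose level in NICD_TCFKO rests on 3 counts, at -8.10 ± 1.41 (0.00188), Ccl3 at -5.97 ± 0.60 (8.74e-05) and Ccr1 at -5.81 ± 1.496 (0.0176). All 10 lower calls held without any 1 library, and that of Cxcl10 had an adjusted p of 0.0508 without NICD_TCFWT replicate 2. The count of higher members was 2 without NICD_TCFWT replicate 1, NICD_TCFKO replicate 1 or NOTCHWT_TCFKO replicate 3, and 3 without NOTCHWT_TCFKO replicate 2. Neither Cxcr4 (-0.10 ± 0.29; 0.837) nor Ccr7 (-1.45 ± 0.82; 0.218) nor Ccr9 (-0.15 ± 0.97; 0.931) passed the threshold. Over the marker lists, 8 of 11 granulocyte and monocyte markers and all 10 tested macrophage markers were lower in the same test, and their part in the members' values was not tested.

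Downstream of the receptors, 37 of 38 genes of a chemokine receptor signalling list were tested. In NICD_TCFWT against NOTCHWT_TCFWT, 3 (8.11%) rose and 7 (18.9%) fell, beside 10.6% and 9.75% of all genes tested. For NICD_TCFKO against NICD_TCFWT, 8 (21.6%) rose and 5 (13.5%) fell, beside 7.25% and 5.15%. NOTCHWT_TCFKO against NOTCHWT_TCFWT had 2 (5.41%) higher and 7 (18.9%) lower, beside 10.8% and 10.5%. Between NICD_TCFKO and NOTCHWT_TCFKO, 9 (24.3%) rose and 4 (10.8%) fell, beside 10.3% and 8.06%. The interaction had 9 (24.3%) higher and 5 (13.5%) lower, beside 13.8% and 13.5%. Rgs3, a regulator that speeds the turn-off of G protein signals, had mean levels of 96.9, 28.7, 66.2 and 22.7 CPM in the groups NOTCHWT_TCFWT, NICD_TCFWT, NICD_TCFKO and NOTCHWT_TCFKO as labelled. Its log2 fold change was -1.75 ± 0.20 (adjusted p = 0.000325) in the first comparison and -2.09 ± 0.21 (8.99e-05) in the third. Arrb2, which encodes the receptor-desensitising beta-arrestin 2, had 168, 107, 191 and 89.8 CPM in the same order. Vav3, a guanine nucleotide exchange factor, went the other way with 55.6, 98.8, 64.4 and 102 CPM, and with a log2 difference of -1.49 ± 0.16 (9.05e-05) in the interaction. Grk3, a receptor kinase, had 184, 116, 135 and 124 CPM.

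Other genes of the chemokine system that are not members numbered 25, of which 8 were tested. Of these, 3 (37.5%) rose and 2 (25%) fell in NICD_TCFWT and likewise in NOTCHWT_TCFKO, each against NOTCHWT_TCFWT, where the background was 10.6% and 9.75%, and 10.8% and 10.5%. For NICD_TCFKO, 2 (25%) rose and 1 (12.5%) fell against NICD_TCFWT (background 7.25% and 5.15%), and 1 (12.5%) rose and 1 (12.5%) fell against NOTCHWT_TCFKO (10.3% and 8.06%). The interaction had 3 (37.5%) higher and 3 (37.5%) lower, beside 13.8% and 13.5%. Cxcr1, another neutrophil receptor, had means of 2.03 CPM for the label NICD_TCFWT and 0.132 CPM for NICD_TCFKO (-3.92 ± 0.69; adjusted p = 0.00543). Cxcl9, an interferon-induced ligand of CXCR3 like Cxcl10, was at 6.35 CPM for the label NOTCHWT_TCFWT and 0.338 CPM for NICD_TCFWT (-4.22 ± 0.66; 0.00151). Cmklr1, the chemerin receptor, had means of 5.05, 0.618, 4.53 and 1.51 CPM in the groups NOTCHWT_TCFWT, NICD_TCFWT, NICD_TCFKO and NOTCHWT_TCFKO as labelled. Ccl27a, a ligand known from skin, was at 0.158, 2.37, 1.60 and 5.07 CPM in the same order.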

How the data were processed

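RNA of sorted LSK cells was sequenced in 12 libraries, and the authors deposited raw counts per gene for each. Per the labels' protocols, PicoPure columns were used for the RNA, TruSeq RNA and Nextera XT kits for the libraries, and a NextSeq instrument for single-end reads. The submitters' processing notes name the mm10 build, HISAT2, featureCounts 1.4.4, limma, edgeR 3.28.0, cutadapt 1.9.1 and bcl2fastq 2.17. Their settings, strand included, are not given in the sources used here. A deposited table of normalized log2 values was not used.

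The counts were scaled by TMM and filtered by filterByExpr, which left 16024 genes. With edgeR 4.0.16 (R 4.3.3), all 12 libraries entered 1 quasi-likelihood fit with a mean for each group. The 4 pairwise contrasts and their interaction were tested by two-sided F tests, and genes were called at an adjusted p (Benjamini-Hochberg, all tested genes) under 0.05. SE is the absolute change over the root of its F statistic. The script was tested on simulated data. Each library is known to 1 count in 30453271 to 43790674, and intervals and floors cover counting error only.

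Every library's value is given for the thymus-homing receptors and for members called in any contrast with a group mean of at least 1 CPM, and of the other lists up to 4 called genes per contrast with the smallest adjusted p were open to naming. Ccr6 and other members with few counts were given in addition after their values were seen. The members and the lists were chosen with earlier results of these data known. Gene positions are from GENCODE M21. Alternatives were RLE size factors, other filters, DESeq2 1.42.0, limma-voom 3.58.1, a replicate block, fits of only the groups compared, each library left out, and a library sheet covariate read from recurring numbers in the sample titles. A covariate for Y-linked transcripts was chosen after seeing the data. It marked libraries above 10 CPM of such transcripts, which were 5 in all and 0 in NOTCHWT_TCFWT.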

Additional observations from a re-analysis of the deposited data

Results flagged for a closer look

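The change that goes with the N1IC label differed between the libraries labelled Tcf7-deleted and those labelled Tcf7-intact for 11 members, each by the interaction term of edgeR's fit. The differences are on the log2 scale, Tcf7-deleted minus Tcf7-intact as labelled. Among the ligands, they were -5.97 for Ccl3 (macrophage inflammatory protein 1-alpha), -2.64 for Ccl4, -5.26 for Ccl6, -10.06 for Ccl9, -8.10 for the platelet chemokine gene Ppbp and 3.80 for the interferon-induced Cxcl10. For the receptors they were -5.81 for Ccr1, -4.61 for Ccr2, -5.30 for Ccr3, -4.51 for Cxcr2 and -2.84 for Cxcr3. Tcf7 itself was highest in the libraries labelled NICD_TCFKO, so these differences hold for the libraries as labelled.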

How the results depend on the processing

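Of 41 calls of a member in a comparison, 22 held under every setting in which they were tested, and none changed direction. Of the 22, 11 were tested under all 21 settings, since the interaction has no fit of only the groups compared and the 1 CPM filter removes Cxcr3. Leaving out the filter gave 0 members higher in NICD_TCFKO against NICD_TCFWT and 2 lower in NOTCHWT_TCFKO against NOTCHWT_TCFWT, and a filter of 1 CPM in 3 libraries, which removes Cxcr5, gave 0 higher in both comparisons of NICD_TCFKO. For NICD_TCFKO against NICD_TCFWT, DESeq2 gave 2 higher and 5 lower members, limma-voom 6 lower, the library sheet covariate 2 higher, the Y-linked covariate (chosen after seeing the data) 2 higher and 5 lower, and a fit of only these groups 0 higher. For NICD_TCFKO against NOTCHWT_TCFKO, the Y-linked covariate gave 2 higher and a fit of only these groups 2 lower. The cause was not tested. Over all genes, DESeq2 called 1468 lower (edgeR 825) for NICD_TCFKO against NICD_TCFWT and 1998 lower (1292) for NICD_TCFKO against NOTCHWT_TCFKO, where a fit of only these groups called 724 higher (1650) and 514 lower (1292).

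With each library left out in turn, members higher and lower ranged over 4 to 9 and 1 to 1 for NICD_TCFWT against NOTCHWT_TCFWT, 0 to 3 and 2 to 5 for NICD_TCFKO against NICD_TCFWT, 5 to 12 and 0 to 2 for NOTCHWT_TCFKO against NOTCHWT_TCFWT, 0 to 3 and 1 to 6 for NICD_TCFKO against NOTCHWT_TCFKO, and 0 to 3 and 10 to 11 for the interaction. Over all genes, the ranges in the same order were 1073 to 1946 and 873 to 1698, 564 to 1463 and 332 to 1225, 1118 to 1993 and 1008 to 1854, 861 to 1786 and 649 to 1516, and 1703 to 2244 and 1774 to 2436.

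The replicate numbers were not taken to pair the libraries. The 18 pairs of same-numbered libraries had correlations of -0.404 to 0.451 (median 0.0304, 7 over 0.1). The 36 pairs with other numbers had -0.445 to 0.471 (median -0.0155, 10 over 0.1). The difference between these kinds of pair was not tested. The replicate block gave 3 in place of 5 members lower in NICD_TCFKO against NOTCHWT_TCFKO and lost 5 of the 41 calls in all: Ppbp in NICD_TCFWT (adjusted p = 0.0532) and Ccr7 (0.0539) and Ccr2 (0.0942) in NOTCHWT_TCFKO, each against NOTCHWT_TCFWT, and Ccl3 (0.0732) and Cxcr3 (0.0504) in NICD_TCFKO against NOTCHWT_TCFKO. Under the block Cxcr4 passed in NICD_TCFWT against NOTCHWT_TCFWT (0.0436).

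Changes near 0 that were not called turned in sign. Ccr9 was at -0.037 with limma-voom and -0.13 with the Y-linked covariate for NICD_TCFWT against NOTCHWT_TCFWT (-0.47 to 0.42 without 1 library). For NICD_TCFKO against NOTCHWT_TCFKO, Ccr7 was at 0.15 with limma-voom, 0.11 with the replicate block and 0.19 with the Y-linked covariate (-0.49 to 0.81), and Ccr9 at 0.02, 0.11 and 0.12 (-0.46 to 0.86). In the interaction, Ccr9 was at 0.057 with limma-voom and 0.25 with the Y-linked covariate (-0.52 to 0.78), and Cxcr4 ranged over -0.24 to 0.10 without 1 library. The Y-linked covariate gave Cxcr4 -0.64 there (adjusted p = 0.0179).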
